A study of Mus musculus with 4 samples.

Results

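The genes described here are the 7 mouse genes for cyclin-dependent kinase (CDK) inhibitors, Cdkn1a, Cdkn1b, Cdkn1c, Cdkn2a, Cdkn2b, Cdkn2c and Cdkn2d, and the 3 genes of the p53 core circuit, Trp53, Mdm2 and Mdm4. They were chosen by symbol, and each of the 10 symbols had 1 row among the 51905 genes of the table. Their levels were measured by RNA-seq in CT26 and MC38, mouse colorectal cancer cell lines labelled as wild type, each transduced with a lentivirus expressing a short hairpin RNA. The hairpin was directed at GFP (shGFP, the control) or at Aurora-A (shmaurka-1, 1 hairpin), and RNA was taken 48 h after seeding. There was 1 library for each line and hairpin, 4 in all. Every group, controls included, carried a lentivirus and had been selected with puromycin and sub-cultured, so there were no uninfected cells to compare with. CT26 was kept in RPMI-1640 and MC38 in high glucose DMEM, and the lines come from different mouse strains, so line, medium and strain cannot be told apart. The comparisons asked which of these genes each line expressed, how far the lines differed, and whether the levels moved with the knockdown.

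The libraries held 22207768 to 23752269 fragments. The targeted gene, Aurka, went from 5724 fragments with shGFP to 1093 with shmaurka-1 in CT26 and from 2300 to 413 in MC38, so the targeted gene was lower under both knockdown labels. The labels call CT26 a fibroblast and MC38 an epithelial cell. The 15 epithelial markers summed to 43.8 and 43.2 FPKM (fragments corrected for transcript length and depth) in the CT26 libraries, most of it Krt18, but to 2.26 and 1.62 FPKM in those of MC38. Of the 15, 6 and 5 exceeded 3 fragments in the CT26 libraries and 7 and 6 in those of MC38. Epcam had at most 1 fragment in any library and Cdh1 at most 6. Vil1, Esrp1 and Ocln were at 0 in CT26 and at low counts in MC38 (38 and 29, 46 and 27, 20 and 8 fragments). Krt20 went the other way, with 434 and 205 fragments in CT26 and 2 and 0 in MC38. So did Cdx2 (14 and 3 against 0 and 0). Lgals4 (19 and 7 against 5 and 2) and Krt19 (6 and 13 against 1 and 2) were also higher in CT26. The 15 mesenchymal markers summed to 1934 and 1909 FPKM in CT26 and to 629 and 656 FPKM in MC38. S100a4 alone stood at 951 and 921 FPKM in CT26, against 36.8 and 60.1 in MC38. Not every marker was higher in CT26. Pdgfra stood at 1.87 and 1.60 FPKM there against 5.59 and 3.35 in MC38, and Col3a1 at 7.64 and 6.59 against 8.48 and 10.4. Leukocyte and endothelial markers summed to less than 1.8 FPKM each in every library, and Cd3e was at 0.

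CDK inhibitors hold the cell cycle back by binding the kinases that drive it. The CIP/KIP proteins p21 (Cdkn1a), p27 (Cdkn1b) and p57 (Cdkn1c) bind many cyclin-CDK complexes, whereas the INK4 proteins p16 and p15 (from Cdkn2a and Cdkn2b), p18 (Cdkn2c) and p19 (Cdkn2d) bind Cdk4 and Cdk6 and so keep the retinoblastoma proteins active. Cdkn2a also encodes, from a separate first exon, Arf, which restrains Mdm2. Mdm2 is the ubiquitin ligase that degrades p53, Mdm4 its partner that masks the activation domain of p53, and both Cdkn1a and Mdm2 are transcribed when p53 is active. The locus of Cdkn2a and Cdkn2b is often lost or silenced in tumours.

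The set of inhibitors expressed differed between the lines (plot of the level of each gene). In CT26 the order of FPKM, the same with either hairpin, was Cdkn1a, Mdm2, Trp53, Mdm4, Cdkn1b, Cdkn2c, Cdkn2d and Cdkn1c, with Cdkn2a and Cdkn2b at the floor. In MC38 it was Trp53, Mdm4, Cdkn1b, Mdm2, Cdkn1a, Cdkn2c, Cdkn2d, Cdkn2a, Cdkn2b and Cdkn1c, again with either hairpin. Neighbours in these orders could be close, as with Mdm2 and Cdkn1a at 21.1 and 20.9 FPKM in MC38 shGFP, and a single library gives no spread by which to separate them. The 7 inhibitor genes summed to 440 FPKM with shGFP and 409 with shmaurka-1 in CT26, and to 93.0 and 81.7 FPKM in MC38. Cdkn1a made up 89.5% and 88.1% of that sum in the CT26 libraries and 22.5% and 20.3% in those of MC38. Cdkn1b, at 42.1% and 38.6%, was the largest contributor in MC38, against 5.08% and 5.02% in CT26. In the ranking of all genes with at least 1 FPKM, Cdkn1a stood at 198 of 11408 in CT26 shGFP and at 4681 of 12137 in MC38 shGFP.

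**Figure D1:**
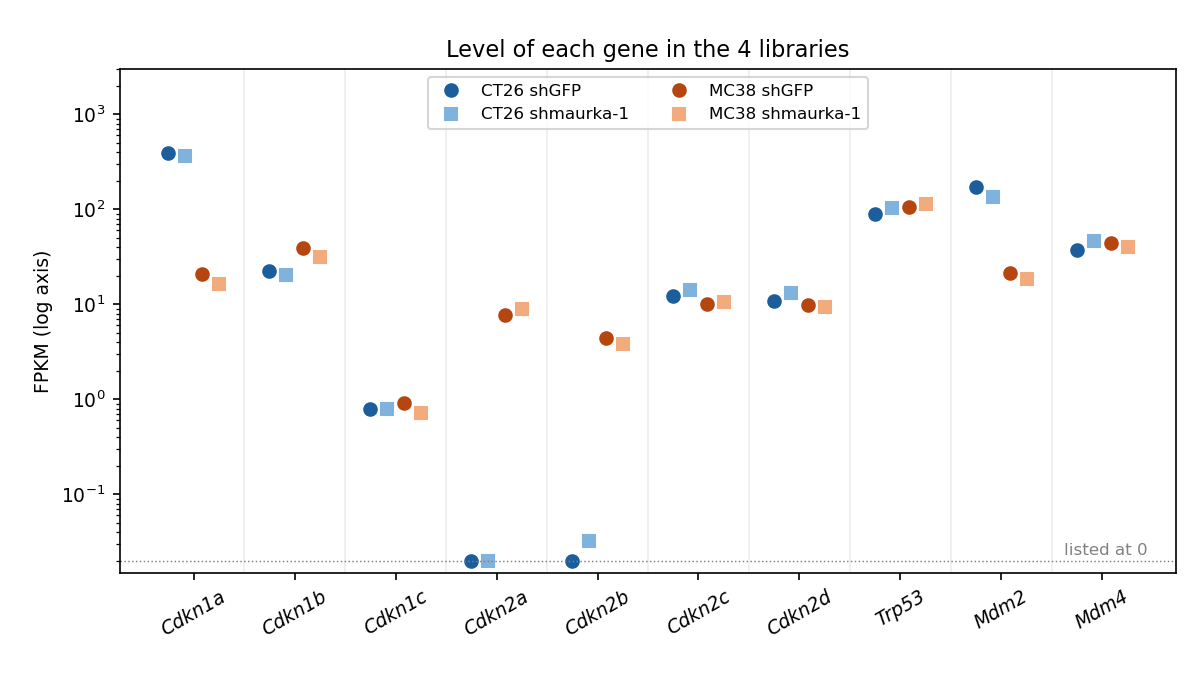
Deposited FPKM (log axis) of the 10 genes in the 4 libraries, 1 point per library, with genes listed at 0 drawn on the dotted line. Cdkn1a and Mdm2 sat far higher in CT26, and Cdkn2a and Cdkn2b were at or next to 0 in CT26. Trp53 and Mdm4 each stayed at a similar level across the 4 libraries.

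Cdkn2a and Cdkn2b were the members found in 1 line only. Cdkn2a (chr4:89274471-89294653, GRCm38) had 0 fragments in both CT26 libraries, 189 in MC38 shGFP and 221 in MC38 shmaurka-1. A count of 0 allows up to 3 fragments, and against that floor, set for each library, Cdkn2a was at least 51.5-fold lower in CT26 than in MC38 with shGFP and at least 57.1-fold lower with shmaurka-1, taking the MC38 counts as they stand. With the counting error of MC38 included, the 95% intervals reached down to 41.5-fold and 46.0-fold. Cdkn2b (chr4:89306289-89311032) had 0 and 1 fragments in CT26 (shGFP, then shmaurka-1, the order kept from here on), and 188 and 164 in MC38. Against the same floor it was at least 51.3-fold lower in CT26 with shGFP, and the 95% interval reached down to 41.3-fold. With shmaurka-1 the single fragment gave a log2 ratio of CT26 to MC38 of -6.10, with a 95% counting interval of -12.30 to -4.49. As 1 fragment is below the floor, that ratio is not a measured level, and the interval reached down to 22.5-fold. Both genes were called lower in CT26 by edgeR (adjusted p = 4.5e-50 for Cdkn2a and 6.6e-42 for Cdkn2b). Both entered that test through their MC38 counts, so these p-values are not evidence separate from the counts above. The DESeq2 Wald test also called both, with a much larger adjusted p (0.023 for Cdkn2a and 5.9e-07 for Cdkn2b). The counting intervals, exact Clopper-Pearson intervals on the fragments of a pair of libraries, cover counting error only. The table gives 1 value for Cdkn2a, so the transcripts of p16 and Arf could not be separated. Among the 10571 genes with at least 100 fragments in each MC38 library, 358, or 3.39%, had at most 3 in each CT26 library. The reverse held for 69 of 9541 genes, or 0.723%.

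The promoters of these genes are shown as the 250 bases before each start site, on the strand of the gene, from RefSeq annotation of GRCm38.p6, because the table holds no value for the separate transcripts. The GC box (GGGCGG, searched on both strands) is in capitals. Arf starts at the distal site (window chr4:89294620-89294869, minus strand) and p16 at a site 12427 bases further on (window chr4:89282193-89282442, minus strand). The window of Cdkn2b is chr4:89311033-89311282, minus strand.
Cdkn2a, Arf start: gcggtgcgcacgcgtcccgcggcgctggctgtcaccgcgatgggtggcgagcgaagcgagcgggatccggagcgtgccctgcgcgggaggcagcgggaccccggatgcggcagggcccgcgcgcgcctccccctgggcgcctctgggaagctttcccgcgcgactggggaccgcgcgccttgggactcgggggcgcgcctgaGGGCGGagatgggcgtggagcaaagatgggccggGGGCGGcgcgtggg
Cdkn2a, p16 start: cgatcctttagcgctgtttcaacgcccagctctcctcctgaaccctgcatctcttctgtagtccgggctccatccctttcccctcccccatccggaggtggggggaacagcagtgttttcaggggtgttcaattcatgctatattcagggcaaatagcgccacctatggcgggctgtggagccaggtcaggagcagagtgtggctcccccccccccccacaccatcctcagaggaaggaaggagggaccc
Cdkn2b: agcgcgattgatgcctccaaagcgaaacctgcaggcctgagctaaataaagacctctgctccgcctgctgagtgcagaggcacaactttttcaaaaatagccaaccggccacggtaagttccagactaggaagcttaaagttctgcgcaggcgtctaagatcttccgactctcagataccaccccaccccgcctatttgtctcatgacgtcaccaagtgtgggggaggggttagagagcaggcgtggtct
The Arf window was 78.4% G and C with 40 CpG dinucleotides and 2 GC boxes, the p16 window 60.0% with 7, and the Cdkn2b window 53.6% with 12, against a median of 52.4% and 6 over 32841 RefSeq promoter windows of the same length. The p16 and Cdkn2b windows held no GC box by these letters, and 32.7% of all windows held one. The capitals describe the reference sequence, and neither methylation nor copy number was measured.

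A neighbouring gene was also at the floor in CT26 (plot of the neighbours of Cdkn2a). Gm12606, whose start (the lower coordinate, whatever the strand) lies at -38.8 kb from that of Cdkn2a, had 2 fragments in each CT26 library, and 230 and 245 in those of MC38. Mtap, the methylthioadenosine salvage gene, at -137.3 kb, was expressed in CT26, with 2223 and 2393 fragments against 5952 and 6359 in MC38. Past Mtap, at -173.8 kb, Gm12602 had 5 and 9 fragments in CT26 and 28 and 23 in MC38. On the side of Cdkn2b, Gm12609 at 107.5 kb had 0 fragments in CT26 and 2 and 4 in MC38, too few to compare. Of the 67 genes that start within 1 Mb of Cdkn2a, 11 exceeded 3 fragments in any library and 5 did so in CT26. Klhl9, an adaptor for a ubiquitin ligase, had 1566 and 1419 fragments in CT26 and 3641 and 2946 in MC38. Ifnb1, the interferon-beta gene, and Mrpl48-ps, a pseudogene, were higher in CT26, with 20 and 24 fragments against 0 and 0, and 271 and 240 against 37 and 59. Gm13283 and Gm12603 had at most 6 fragments in any library.

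**Figure D2:**
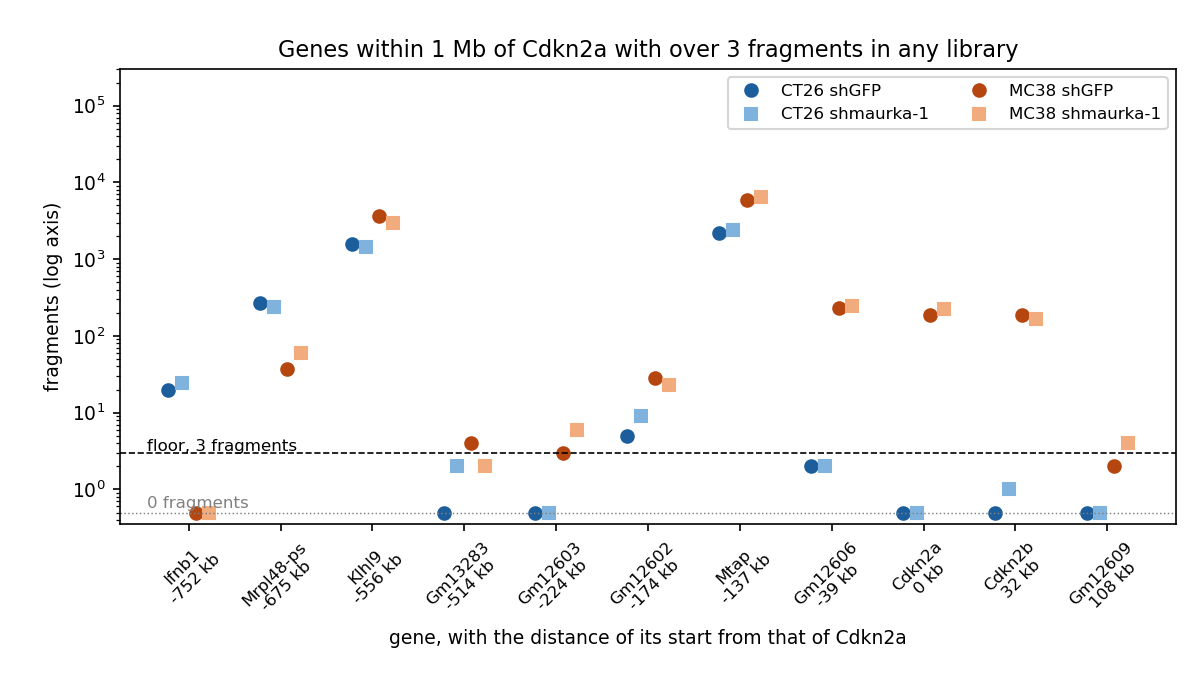
Fragments (log axis) of the 11 genes within 1 Mb of Cdkn2a that had more than 3 fragments in any library, ordered by the distance of their start from that of Cdkn2a in kb, with the floor of 3 fragments dashed and a count of 0 on the dotted line. Gm12606, Cdkn2a and Cdkn2b had 164 to 245 fragments in the MC38 libraries and 0 to 2 in those of CT26, whereas Mtap and Klhl9 were well above the floor in all 4.

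A listed 0 was not always a trustworthy absence in these files. A block of 210 neighbouring genes on chromosome 8 that share 1 locus in the table, among them the ribosomal protein gene Rpl13, was at exactly 0 in both CT26 libraries, with 175546 and 181378 fragments in MC38. That block held 32 of the 37 genes that were at 0 in CT26 with at least 1000 fragments in each MC38 library, and 58 of the 124 with at least 100, the range in which Cdkn2a falls. Cdkn2a and Cdkn2b each had a locus of their own on chromosome 4, and Cdkn2b and Gm12606 were not at 0 in every CT26 library.

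Cdkn1a and Mdm2 were many times higher in CT26. Cdkn1a (chr17:29090979-29100722), the p21 gene, had 15510 and 12487 fragments in CT26 and 1017 and 796 in MC38. Both CT26 libraries lay above both MC38 libraries, as the lines' libraries did not overlap in 86.4% of all genes tested. The ratio was 18.6-fold with shGFP and 20.3-fold with shmaurka-1 after TMM scaling of the counts. In edgeR's quasi-likelihood test, with the lentivirus as a block, the log2 difference of CT26 over MC38 was 4.28 ± 0.108 (SE), with an adjusted p below what the software can represent. Mdm2 (chr10:117688875-117710758) had 9890 and 7303 fragments in CT26 and 1297 and 1059 in MC38, 9.32-fold higher in CT26 with shGFP and 8.92-fold with shmaurka-1. Its log2 difference was 3.19 ± 0.105 (adjusted p = 3.9e-195, edgeR). Differences of this size were not rare between these lines, since 10.3% of the 13984 genes tested differed at least as far as Cdkn1a and 13.9% at least as far as Mdm2. The p of this test is small because each gene's spread was taken from the trend over all genes, with 2 libraries per line and 1 residual degree of freedom. After line and lentivirus, that degree of freedom is the difference between the lines in the effect of the hairpin. The p therefore does not measure a spread between replicate libraries or cultures.

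Windows of 250 bases before the start sites of Cdkn1a and Mdm2 are shown, with matches to the p53 half-site consensus in capitals. Both members, known as p53 targets, were picked after their higher levels in CT26 were seen. Binding of p53 to the matches was not measured, and their part in the line difference was not tested. The windows are chr17:29090729-29090978, plus strand, for the first of the Cdkn1a start sites, and chr10:117710759-117711008, minus strand, for Mdm2 (RefSeq, GRCm38.p6).
Cdkn1a: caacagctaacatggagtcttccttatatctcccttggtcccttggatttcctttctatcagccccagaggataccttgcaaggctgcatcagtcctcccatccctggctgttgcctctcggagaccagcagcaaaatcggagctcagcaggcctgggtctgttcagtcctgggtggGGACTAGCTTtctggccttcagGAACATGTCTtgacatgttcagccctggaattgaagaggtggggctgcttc
Mdm2: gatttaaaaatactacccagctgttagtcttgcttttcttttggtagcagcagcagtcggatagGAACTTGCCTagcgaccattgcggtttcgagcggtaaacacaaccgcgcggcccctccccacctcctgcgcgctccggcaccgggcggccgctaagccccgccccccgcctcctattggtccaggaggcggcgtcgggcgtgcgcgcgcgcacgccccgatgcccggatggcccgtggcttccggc
The Cdkn1a window held 2 matches, beginning 73 and 51 bases before the start site, while the window of the other Cdkn1a start site, 2790 bases downstream, held 0. The Mdm2 window held 1, beginning 186 bases before it. Of the 13 windows listed for 9 of the 10 genes, 4 held a match, the others being those of Cdkn2d (102 bases before the start) and Trp53 (75 bases before it). The motif reads the same on both strands and was found in 7.13% of the 32841 windows.

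Trp53 itself was close to level between the lines. Trp53 (chr11:69580359-69591873) had 3460 and 3595 fragments in CT26 and 4883 and 5079 in MC38, or 88.9, 104, 107 and 113 FPKM. The CT26 libraries were the lower by scaled count, but the log2 difference of -0.17 ± 0.0972 was not called (adjusted p = 0.111, edgeR). The sequence of Trp53 was not examined. Mdm4 (chr1:132959484-133030561, sharing its locus with Gm29257, which had 19 to 25 fragments) had 2613 and 3062 fragments in CT26 and 3813 and 3371 in MC38. Its scaled counts overlapped between the lines, with a log2 difference of -0.01 ± 0.100 (adjusted p = 0.937, edgeR). Per length, Mdm2 stood at 4.58 and 2.90 times the FPKM of Mdm4 in the CT26 libraries and at 0.482 and 0.458 times in those of MC38. The ratio of Cdkn1a to Trp53 FPKM was 4.43 and 3.46 in CT26 and 0.196 and 0.147 in MC38, and that of Mdm2 to Trp53 was 1.92 and 1.31 against 0.198 and 0.164.

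The other inhibitors differed less. Cdkn1b (chr6:134920401-134925513), for p27, had 927 and 766 fragments in CT26 and 2084 and 1676 in MC38, a log2 difference of -0.82 ± 0.116 (adjusted p = 5.3e-12, edgeR), with both CT26 libraries below both of MC38. Cdkn2c (chr4:109660876-109667189), for p18, had 548 and 646 fragments in CT26 and 552 and 490 in MC38, or 588 and 751 against 484 and 440 as scaled counts, which do not overlap. Its log2 difference was 0.53 ± 0.142 (adjusted p = 0.00033, edgeR), but the call was lost with total-count scaling (0.19, adjusted p = 0.22, edgeR). The DESeq2 Wald test also made no call, with the same difference of 0.53 and a wider error (± 0.271, adjusted p = 0.082). Cdkn2c lies on the same chromosome as Cdkn2a and was present in both lines. Cdkn2d (chr9:21288410-21291407), for p19, had 278 and 306 fragments in CT26 and 306 and 286 in MC38, and its log2 difference of 0.31 ± 0.171 was not called (adjusted p = 0.088, edgeR). Cdkn1c (chr7:143458339-143461050), for p57, was low throughout, at 45 and 24 fragments in CT26 and 39 and 42 in MC38, which overlap. Its log2 difference was 0.05 ± 0.374 (adjusted p = 0.909, edgeR), an error too wide to tell a moderate difference from none. Its locus overlaps Gm44732, which had 0 fragments.

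In all, 6 of the 10 genes were called between the lines at an adjusted p under 0.05, 3 higher in CT26 (Cdkn1a, Mdm2, Cdkn2c) and 3 lower (Cdkn1b, Cdkn2a, Cdkn2b). Of all genes tested 76.1% were called, 36.5% higher in CT26 and 39.6% higher in MC38, so the share called among these 10 was no higher than the background. DESeq2 called 5 of the 10, limma-voom 6, and limma on log2(FPKM + 1) 6 of the 9 it tested. Scaling by total count moved the median log2 difference of all genes from -0.04 to -0.38, and the CT26-higher share of the calls from 47.9% to 33.5%. Under it Trp53 (-0.51, adjusted p = 4.8e-07, edgeR) and Mdm4 (-0.35, adjusted p = 0.00088) were called lower in CT26. The epithelial and mesenchymal marker sums given above also differed between the lines, and their part in these differences was not tested. In bulk RNA, fewer cells expressing a gene and less RNA of it per cell cannot be told apart.

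Other genes of the circuit were counted by list, to be read against the 36.5% of all genes called higher in CT26 and the 39.6% called lower. Of 34 p53 target genes, 31 were tested between the lines, 19 were called higher in CT26 and 9 lower, and their median log2 difference was 0.60, against -0.04 over all genes (plot of the p53 circuit between the lines). Plk2, a polo-like kinase induced by p53, had 43481 and 40441 fragments in CT26 and 1117 and 1466 in MC38, a log2 difference of 5.36 ± 0.108. Phlda3, an inhibitor of Akt signalling, had 4717 and 3367 fragments in CT26 and 424 and 325 in MC38, a log2 difference of 3.76 ± 0.119 (adjusted p = 2.8e-209, edgeR). Gdf15, a secreted stress cytokine, went the other way, with 2 and 8 fragments in CT26 and 1169 and 944 in MC38. The 3 tested and not called were Apaf1, Ei24 and Rrm2b.

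**Figure D3:**
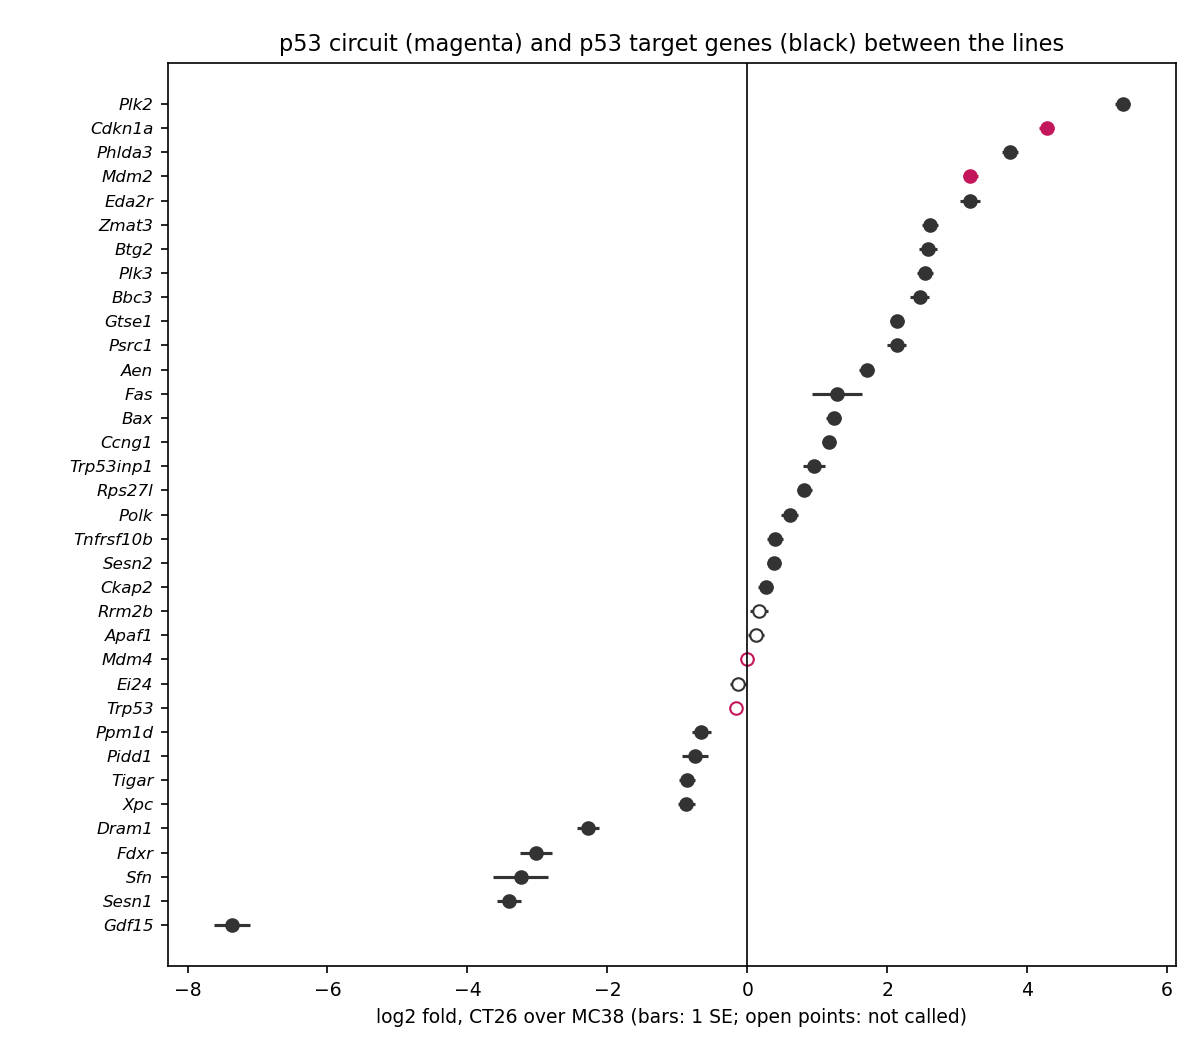
log2 difference of CT26 over MC38 (edgeR, bars 1 SE) of Cdkn1a, Mdm2, Mdm4 and Trp53 (magenta) among the tested p53 target genes (black), with filled points called at an adjusted p under 0.05. Cdkn1a at 4.28 and Mdm2 at 3.19 were near the top, Mdm4 and Trp53 near 0, and Gdf15 at -7.37 stood lowest.

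Genes that act on p53 were split between the lines, with 8 of 24 tested called higher in CT26 and 10 lower and a median log2 difference of 0.04. The 3 with the largest differences were all lower in CT26, the deacetylase Sirt1 (-2.08 ± 0.135), the DNA damage kinase Atm (-1.88 ± 0.116) and the checkpoint kinase Chek2 (-1.33 ± 0.141). Of the 14 cyclins, CDKs and retinoblastoma family genes, 7 were called higher in CT26 and 6 lower. Ccnd1, the D-type cyclin that works with Cdk4 and Cdk6, had 19643 and 15344 fragments in CT26 and 2405 and 2041 in MC38, a log2 difference of 3.30 ± 0.101. Rbl2, the p130 gene of the retinoblastoma family, was lower in CT26 by a log2 difference of -3.04 ± 0.15, and the cyclin Ccne2 by -1.90 ± 0.148. Of 10 E2F and DP factors, 3 were called higher in CT26 and 6 lower (median -0.49), led by Tfdp2, a partner of the E2F proteins, at -3.92 ± 0.145, then E2f2 at -2.44 and E2f6 at -1.08.

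The list of Polycomb regulators of the Cdkn2a locus holds mostly subunits of the complexes that silence it, but also Kdm6a and Kdm6b, demethylases that remove the Polycomb mark. Of its 18 genes 4 were called higher in CT26, Kdm6b (0.68) among them, and 12 lower, against 36.5% and 39.6% of all genes, with a median log2 difference of -0.57. Cbx2 had 130 and 128 fragments in CT26 and 1025 and 878 in MC38 (-2.55 ± 0.16), Phc1 stood at -1.67 ± 0.129 and Phc2 at 1.61 ± 0.0980. With the same scaling the median of all genes was -0.04. It was -0.38 with total-count scaling, for which the median of the list was not computed. Of 10 tested genes for the turnover of CDK inhibitors, 3 were called higher in CT26 and 3 lower. The largest differences were those of Ubac1 (-0.88), Cks1b (0.51), which helps degrade p27, and Skp1a (-0.43), a subunit of the ligase that does so.

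Against shGFP, the knockdown libraries showed small differences in these genes (plot of knockdown against control). Cdkn1a was lower with shmaurka-1 in each line, by a log2 ratio of -0.20 in CT26 (95% counting interval -0.24 to -0.17) and of -0.32 in MC38 (-0.46 to -0.19). By FPKM the CT26 ratio was smaller, at -0.13. Cdkn1b was also lower in each, by -0.16 (-0.30 to -0.02) in CT26 and -0.28 (-0.38 to -0.19) in MC38. Cdkn1c, with 45 and 24 fragments in the CT26 pair and 39 and 42 in the MC38 pair, had ratios of -0.77 (-1.57 to -0.05) and 0.14 (-0.52 to 0.81). Its FPKM in CT26, 0.792 and 0.791, showed no such difference between the same libraries, and in MC38, at 0.909 and 0.723, the direction turned. With n = 1 library per condition no within-line ratio has a replicate behind it, and an interval that leaves out 0 compares those 2 libraries, not the conditions.

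The INK4 genes did not move as a group. In MC38, Cdkn2a had 189 and 221 fragments with shGFP and shmaurka-1 (0.26, -0.03 to 0.55) and Cdkn2b 188 and 164 (-0.16, -0.48 to 0.15), and both intervals include no change. In CT26 neither gene rose above the floor with either hairpin. Cdkn2c was higher with shmaurka-1 in CT26 (0.35, 0.18 to 0.52) and lower in MC38 (-0.14, -0.32 to 0.04), where the FPKM ratio had the other sign (0.05). Cdkn2d had the same pair of signs, 0.25 (0.01 to 0.49) and -0.06 (-0.30 to 0.17).

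Among the p53 circuit genes, Mdm2 was lower with shmaurka-1 in each line, by -0.32 in CT26 (-0.37 to -0.28) and by -0.26 in MC38 (-0.38 to -0.14). Trp53 was slightly higher in each, by 0.17 (0.10 to 0.23) and 0.09 (0.03 to 0.15). Mdm4 was higher in CT26 (0.34, 0.26 to 0.42) and lower in MC38 (-0.14, -0.21 to -0.08). For comparison, the log2 ratio of Aurka was -2.27 in CT26 and -2.44 in MC38.

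**Figure D4:**
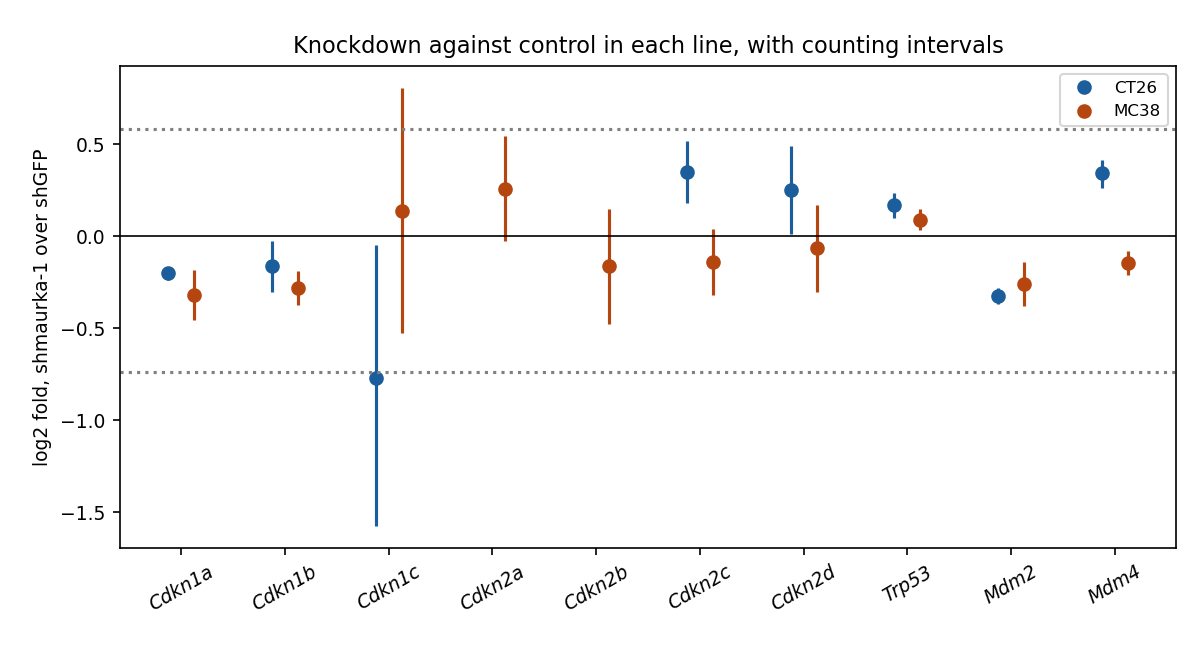
log2 ratio of shmaurka-1 over shGFP in each line, from TMM-scaled counts with 1 count added, with 95% counting intervals as bars and the thresholds of 1.5-fold and 0.6-fold dotted. Cdkn1a, Cdkn1b and Mdm2 lay below 0 in both lines and Trp53 above, Mdm4 lay on opposite sides, and Cdkn2a and Cdkn2b have no CT26 point because they were at the floor.

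Of the 8 genes that could be compared in both lines, 3 had intervals below no change in both (Cdkn1a, Cdkn1b, Mdm2), as did 7.62% of all genes, and 1 had intervals above (Trp53), as did 8.31%. Higher values in both lines were found in 27.6% of all genes, and among the 8 in 1, Trp53. Mdm4 had intervals on opposite sides, as did 7.43% of all genes. The sign was opposite in 4 of the 8 (Cdkn1c, Cdkn2c, Cdkn2d and Mdm4), against 43.4% of all genes, and 3 of the 8 were lower in both lines, against 29.0% of all genes. Taken line by line, 4 members had intervals below no change in CT26, where 22.3% of all genes did, and 4 in MC38, where 21.7% did. Intervals lay above no change for 4 members in CT26, against 20.9% of all genes, and for 1 in MC38, against 23.3%. With the thresholds of the study, 1.5-fold and 0.6-fold, the single member past either was Cdkn1c in CT26, at 0.586-fold and on 45 and 24 fragments, and 2.62% of all genes lay below 0.6-fold there. Above 1.5-fold there were 0 members, against 3.07% of all genes in CT26 and 2.54% in MC38, and in MC38 0 lay below 0.6-fold, against 1.01%. With 5 counts added or with FPKM in place of counts, no member passed.

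The knockdown effect shared by the lines was then tested with edgeR, with cell line as the block. None of the 8 members tested was called (0 of 8), against 333 of 11928 genes, or 2.79% (1.67% of all genes higher with shmaurka-1 and 1.12% lower). Scaling by total count left the number of calls close, at 320, but moved the share of them higher with shmaurka-1 from 59.8% to 49.1%. At an unadjusted p under 0.05 there were 2 members, Mdm2 and Cdkn1a. The common log2 ratio of Mdm2 was -0.29 ± 0.0986 (adjusted p = 0.0836, edgeR), with a range of adjusted p over the alternatives of 0.0539 to 1.0. That of Cdkn1a was -0.25 ± 0.0966 (adjusted p = 0.171, edgeR, range 0.109 to 1.0). Cdkn1b stood at -0.22 ± 0.116 (adjusted p = 0.43) and Trp53 at 0.13 ± 0.0981 (adjusted p = 0.668), and the adjusted p of Cdkn1c, Cdkn2c, Cdkn2d and Mdm4 was at least 0.797. DESeq2 called 0 of 7 members, limma-voom 0 of 8 and limma on log2(FPKM + 1) 0 of 7. By the same edgeR test Aurka changed by -2.35 ± 0.112 (adjusted p = 6.0e-92).

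The other lists were counted in the same test, where 1.67% of all genes were called higher with shmaurka-1, 1.12% were called lower, and 1469 of 11928 had an unadjusted p under 0.05. Of 30 p53 target genes tested, 0 were called higher and 1 lower, and 12 had an unadjusted p under 0.05. The 1 called was Phlda3 (4717 and 3367 fragments in CT26, 424 and 325 in MC38, log2 ratio -0.36 ± 0.112, adjusted p = 0.0475, edgeR). The median of the list was -0.03, against -0.0023 over all genes, and was -0.07 in CT26 and 0.01 in MC38. None of the 24 genes that act on p53, the 10 E2F and DP factors or the 18 Polycomb regulators was called (0 of each), with 4, 3 and 1 at an unadjusted p under 0.05. Of the 14 cyclins, CDKs and retinoblastoma family genes 1 was called and 6 had an unadjusted p under 0.05. The gene called was Ccna2, the cyclin of S phase and early mitosis, which was higher (0.36 ± 0.0983, adjusted p = 0.0129, edgeR). Its log2 ratio was 0.62 in CT26 and 0.11 in MC38. Of the 10 turnover genes 1 was called, which was also the 1 with an unadjusted p under 0.05, Cul4b, a scaffold of the ligase that degrades p21 in S phase (0.39 ± 0.108, adjusted p = 0.0179, edgeR). Of 19 mitosis genes 8 were called higher, against 1.67% of all genes, and 16 had an unadjusted p under 0.05. Bub1b (0.51), Cdc20 (0.47) and Kif20a (0.40) led these. In CT26 and MC38 in turn, Bub1b stood at 0.90 and 0.11, Cdc20 at 0.72 and 0.20, and Kif20a at 0.88 and -0.12. Aurkb, Mki67 and Top2a, also called, were likewise lower in MC38 (-0.14, -0.06 and -0.09). Within the lines, 14 of the 19 were above 1.5-fold in CT26, against 3.07% of all genes, and 0 of 19 in MC38, against 2.54%. Its median log2 ratio was 0.72 in CT26, against -0.01 over all genes, and -0.09 in MC38.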

How the data were processed

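The genes, lists and tests were chosen with earlier results of these data known. The authors deposited, for 51905 genes, estimated counts and FPKM. The submitters' processing notes name Trimmomatic 0.36, HISAT2, Cufflinks 2.2.1, Cuffdiff and GRCm39. The deposited coordinates are GRCm38: 99.8% of 19371 genes that shared no locus lay over their namesake in GRCm38.p6 and 9.24% in GRCm39. Starts count from 0 and 1 was added. Libraries were strand-specific, and whether counting used strand is not given in the sources used here, so overlapping genes are uncertain.

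The estimated counts deposited by the authors are whole fragments multiplied by a step for each library (1.06, 1.17, 0.885 and 0.901). Dividing by it left 97.1% to 97.7% of nonzero values whole within 0.05, and these fragments gave intervals and the floor of 3. Counts rounded to whole numbers were tested with edgeR 4.0.16 (R 4.3.3) by the quasi-likelihood test with TMM scaling and Benjamini-Hochberg adjustment. Genes entered the knockdown test with a mean count of 10 or more in both lines, and the line test with that mean over the 4 libraries. Prior degrees of freedom came out infinite. Cell line, which pairs each knockdown with its control, or lentivirus was the block. Within a line, ratios are of scaled counts with 1 count added. DESeq2 1.42.0, limma 3.58.1, FPKM, and other scalings and filters were alternatives. Named genes were the members, Aurka, the neighbours of Cdkn2a above the floor, and up to 3 called genes of each list with the largest change. Apaf1, Ei24, Rrm2b, Kdm6a, Kdm6b, Aurkb, Mki67 and Top2a and the marker and block genes were named after their values were seen. The scripts were tested on simulated data. Intervals used scipy 1.17.1. Nothing says that the libraries came from separate cultures, and no condition had a replicate library, so p-values do not measure a spread between cultures. Usp10, listed at 0 in CT26 within the chromosome 8 block, was left out of the lists, and protein sequences and a Cdkn1c promoter were not analysed here.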

Additional observations from a re-analysis of the deposited data

Results flagged for a closer look

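In 4 of the 8 members compared, the shmaurka-1 library moved one way from its control in CT26 and the other way in MC38. Opposite signs were found in 43.4% of all genes compared. By the deposited FPKM only Mdm4 and Cdkn2d kept opposite signs. Mdm4, the partner of Mdm2, had log2 ratios of 0.34 in CT26 and -0.14 in MC38, and its counting interval left out 0 in both lines. Cdkn2c stood at 0.35 and -0.14, and Cdkn2d at 0.25 and -0.064. Cdkn1c stood at -0.77 and 0.14, on 24 to 45 fragments per library. By FPKM the ratios of Cdkn2c were 0.21 and 0.05 and those of Cdkn1c -0.0028 and -0.33. With 1 library per condition, whether the lines differ was not tested for any of them.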

How the results depend on the processing

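Total-count scaling turned the line difference of Cdkn1c to -0.29 (adjusted p = 0.481, edgeR) and of Cdkn2d to -0.028 (adjusted p = 0.885), and that of Mdm4 turned to 0.023 with no filter on low counts (adjusted p = 0.875) and to 0.0033 with filterByExpr (adjusted p = 0.978), none of them called in either setting. The 333 genes called for the common effect of knockdown became 101 with a mean of at least 50 counts, 29 with the DESeq2 Wald test and 8 with limma on log2(FPKM + 1). Without the cell line as a block, which is the pairing of knockdown with control, 0 genes were called, with 13 at an unadjusted p under 0.05. The cause of these shifts was not tested. The number of members past the thresholds in CT26 went from 1 to 0 with 5 counts added, with FPKM without a pseudocount and with FPKM + 1. By FPKM without a pseudocount the CT26 ratio of Cdkn1a was -0.13, and the MC38 ratios of Cdkn2c and Cdkn1c turned, to 0.05 and -0.33. Leaving out the chromosome 8 block, chosen after seeing the data, left 333 calls for knockdown and 10571 in place of 10644 between the lines. Depth limits Cdkn1c, and, in MC38, Cdkn2a and Cdkn2b.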
